A study of Homo sapiens with 8 samples.

Results

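The genes described here are 31 genes of DNA replication and S phase, measured in CAL-27 cells exposed to inhibitors of protein kinase C. They were listed by name, with earlier results of these data known, and found as the genes whose symbol appears in the probe annotation of the arrays, with CDC45 also listed there as CDC45L and POLA1 as POLA. They make up 31 of 30982 gene names there and are covered by 39 of 41000 probes, with 1 probe for 23 genes and 2 probes for 8 genes. The RefSeq accession or name of all 39 probes gave the same gene. Every one of the 31 genes passed the filter on dim probes, which asked for signal above background on at least 2 of the 8 arrays. GINS1 was above background on 6 arrays and the other 30 genes on all 8.

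DNA replication starts at origins where ORC, CDC6 and CDT1 load the MCM2 to MCM7 ring, the core of the replicative helicase. At the start of S phase CDC45 and the GINS complex join that ring, and replication factor C places the sliding clamp PCNA on DNA, where it tethers the polymerases. Many of these genes are transcribed at the transition from G1 to S by E2F factors, which the retinoblastoma protein and its relatives hold in check in resting cells.

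CAL-27 is an established line from a human squamous cell carcinoma of the tongue. Control cells (n = 3 arrays), cells given enzastaurin at 10 µM (n = 3) and cells given a compound labelled only Go (n = 2) were compared; the dose of Go and the vehicle of the controls are not stated. Per the labels, serum was withdrawn for 24 h, the inhibitor was then added and RNA was taken 24 h later. The design therefore asks how these genes stand after each inhibitor relative to control, and whether the inhibitors differ, at doses that cannot be matched. All groups are the same cell line, and nothing says that arrays of a group came from separate cultures, so each p-value reflects array-to-array spread, which may be technical.

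Values are normalised log2 signals, each from 1 probe per gene, and they can be compared between arrays but not between genes. Between 52.1% and 57.3% of probes were above background on an array, and no member was saturated on any array. By mean spot position, which stands in for the slide because the labels name none, control 1, 2 and 3 and Go 1 formed one set and Go 2 and enzastaurin 1, 2 and 3 the other. No control array shares a set with an enzastaurin array, and only the Go arrays lie in both sets. A fit with the set as a block therefore takes the difference between the sets from Go 1 and Go 2 alone. On the first principal component of the 31 genes, which held 76% of their variance, the controls lay at -2.04, -1.68 and -1.15, Go 1 at 0, Go 2 at 1.28 and the enzastaurin arrays at 1.19, 0.94 and 1.46. All controls lay below all treated arrays on it, and Go 1 lay between the controls and the other treated arrays. In bulk RNA, fewer cells in S phase and less RNA per cell cannot be told apart.

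Promoters are shown first because most of these genes share a sequence feature. The list was made by name, but many of its genes are transcribed by E2F factors. The share with an E2F motif is therefore not independent of the choice of genes. RefSeq promoters (GRCh38.p14, 250 bases before to 50 after the start) were available for 28 of the 31 genes, as 37 promoters. An E2F motif, searched as TTCCCGC, or in its place as TTCGCGC, or else as TTGCCGC, or finally as TTGGCGC, on both strands with overlapping matches counted, was found for 25 of the 28 genes. It was in 27 of the 37 promoters (73%), against 13% of all 35116 promoters of that length and 16.1% of those of protein-coding genes. Of 79 promoters of other replication genes, which are described further below, 29 (36.7%) held it. CCAAT was in 62.2% of the member promoters and 34.6% of all, and TTTGAA in 2.7% and 15.2%. Among the promoters of the other replication genes these shares were 49.4% for CCAAT and 11.4% for TTTGAA. The 160 bases before the start are printed below for 5 genes that moved differently, with the E2F matches in capitals. MCM3 (chr6:52284743-52284902, minus strand) and POLA1 (chrX:24693758-24693917, plus strand) were lower with both inhibitors. MCM6 (chr2:135876444-135876603, minus strand) passed the test with neither inhibitor, and PCNA (chr20:5126623-5126782, minus strand) and UHRF1 (chr19:4909341-4909500, plus strand) were higher with enzastaurin, UHRF1 by the brighter of its 2 probes only (its other probe was lower, and the slide block turned the value of the brighter one to -0.08).
MCM3: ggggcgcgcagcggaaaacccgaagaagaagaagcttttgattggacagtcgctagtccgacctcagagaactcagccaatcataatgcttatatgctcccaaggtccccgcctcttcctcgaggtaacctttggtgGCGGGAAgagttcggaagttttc
POLA1: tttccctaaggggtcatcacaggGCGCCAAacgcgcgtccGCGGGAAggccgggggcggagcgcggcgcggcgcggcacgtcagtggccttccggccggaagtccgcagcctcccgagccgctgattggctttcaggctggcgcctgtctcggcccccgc
MCM6: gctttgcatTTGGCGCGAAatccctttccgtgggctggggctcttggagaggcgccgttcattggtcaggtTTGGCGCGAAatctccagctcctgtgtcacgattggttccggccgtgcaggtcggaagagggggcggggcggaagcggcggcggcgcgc
PCNA: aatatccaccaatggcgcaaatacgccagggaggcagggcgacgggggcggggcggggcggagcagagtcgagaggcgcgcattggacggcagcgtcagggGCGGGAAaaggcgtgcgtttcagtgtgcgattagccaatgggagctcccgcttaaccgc
UHRF1: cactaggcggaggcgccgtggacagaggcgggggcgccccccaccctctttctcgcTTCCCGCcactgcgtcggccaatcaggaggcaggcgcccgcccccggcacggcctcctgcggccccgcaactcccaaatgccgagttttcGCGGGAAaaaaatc
The MCM6 stretch holds 4 matches, in overlapping pairs, the POLA1 and UHRF1 stretches 2 each and the MCM3 and PCNA stretches 1 each. Matches of the motif were found in genes of every class of response to enzastaurin: in 11 of the 14 genes called lower that had a promoter, in all 3 called higher and in all 11 not called. The 3 genes whose promoters held no match, MCM10, CDC45 and FEN1, were among those called lower. A match is a description of letters in this window and says nothing about binding.

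Relative to control, 15 of the 31 genes were lower with enzastaurin, 3 were higher (GINS1, PCNA and UHRF1) and 13 did not pass the test (limma, Benjamini-Hochberg over 18833 gene names, threshold 0.05). That is 48.4% lower and 9.68% higher, against 32.6% lower and 20.9% higher among all genes tested; in either direction 58.1% of the members were called, near the 53.6% of all genes. The members' differences ran from -0.84 for POLA1 to 1.06 for UHRF1, with a median of -0.23, beside -0.10 over all genes. GINS1 passed the filter mainly through the treated arrays, where it is higher; tested with the probes above background on every array, which cover the other 30 members, 16 were lower and 2 higher. FEN1, among the 15 lower, and UHRF1 are counted by the brighter of their 2 probes, and the other probe of each was called in the opposite direction. Only UHRF1 reached a 2-fold difference; 6.14% of all genes were called at least 2-fold higher and 3.85% at least 2-fold lower. Enzastaurin and control arrays stood fully apart for 15 genes below and 3 above control, as they did for 41.9% and 26.1% of all genes.

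The direction over the list depends on the scaling of the arrays. With each array scaled to its median in place of quantile normalisation, the median of all genes moved from -0.10 to 0.04. Of the members 9 were then lower and 6 higher, with a member median of 0.02. Of all 18833 genes 3732 were lower and 5276 higher with that scaling. The share of all calls that were higher moved from 39.1% to 58.6% for enzastaurin and from 44.2% to 64.2% for Go against control, and from 59.2% to 36.6% for Go against enzastaurin. With the spot-position set as a block, no member was called for enzastaurin against control (limma) and 528 of all genes were. At an unadjusted p under 0.05, 6 members and 26.3% of all genes passed in that fit. Among the 15 genes called lower, control 3 was the control nearest to the enzastaurin arrays in 14 (93.3%), as it was in 75.9% of all genes called lower. Among the 3 called higher it was the nearest in 1 (33.3%), against 73.5% of all genes called higher.

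**Figure D1:**
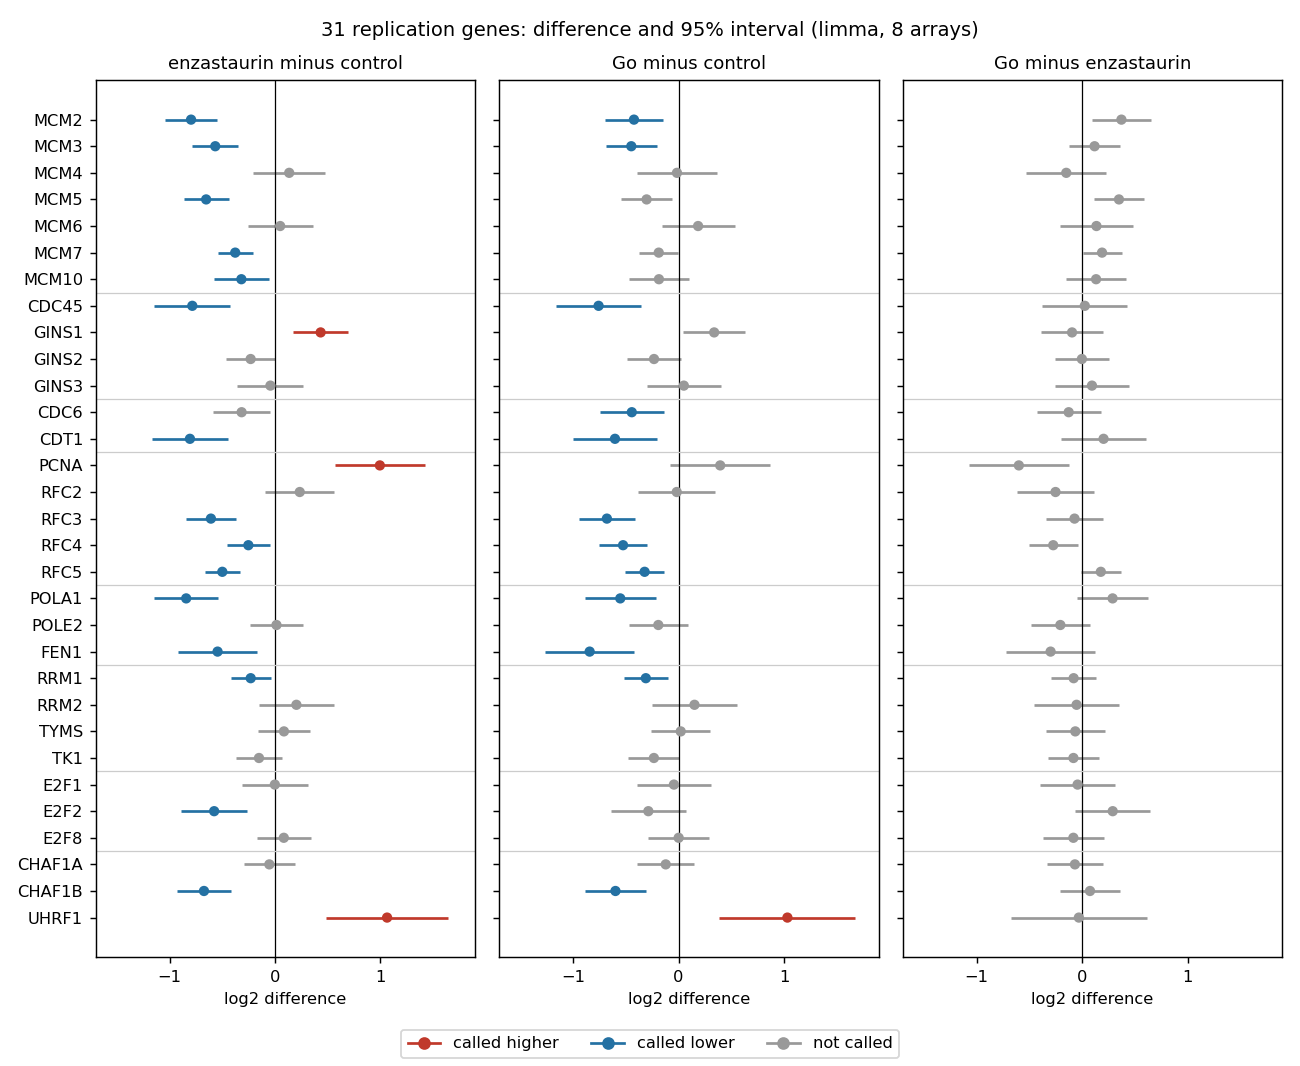
Log2 difference (points) and its 95% interval from limma (lines) for the 31 genes in each comparison, grouped by role, with 3 control, 3 enzastaurin and 2 Go arrays. With enzastaurin 15 genes were called lower and 3 higher, with Go 12 lower and 1 higher, and none was called between the inhibitors.

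Of the 7 MCM genes, 5 fell with enzastaurin, 1 of them (MCM10) by a call that rests on 1 probe. MCM2, a subunit of the helicase ring, read 12.32, 12.36 and 12.24 in the controls, 11.51, 11.64 and 11.38 with enzastaurin and 12.04 and 11.72 with Go. The groups did not overlap and both Go arrays lay between the others; MCM2 was 1.74-fold lower with enzastaurin (log2 difference -0.80, SE 0.11, limma adjusted p = 0.00112). MCM5, its neighbour in the ring, read 12.54, 12.48 and 12.29 in controls, 11.77, 11.87 and 11.71 with enzastaurin and 12.08 and 12.19 with Go. MCM5 fell 1.57-fold with enzastaurin (adjusted p = 0.0013). MCM3 and MCM7 fell 1.48-fold (adjusted p = 0.00227) and 1.3-fold (adjusted p = 0.00375), and no enzastaurin array reached a control.

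MCM4 and MCM6, members of the same ring, did not follow. MCM6 read 11.73, 11.77 and 12.00 in controls and 11.81, 12.15 and 11.69 with enzastaurin, and its arrays overlapped. Its difference was 0.05, with an interval of -0.26 to 0.36, beside -1.04 to -0.55 for MCM2; differences between genes were not tested. MCM4 differed by 0.14 (interval -0.20 to 0.47), and its controls alone spanned 9.22 to 9.74. MCM10, which helps the loaded helicase to unwind, was lower by its brighter probe (-0.32, limma adjusted p = 0.0416). It was called in 11 of 20 other settings, but these include its other probe, which was called higher (0.53). Its other probe, A_24_P412088, read higher on all 5 treated arrays but was above background on 3 control arrays, 1 enzastaurin array and no Go array, and settles nothing about MCM10.

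Among the proteins that join the ring, CDC45 and the GINS genes differed. CDC45, which completes the active helicase, read 13.35, 13.22 and 12.94 in controls, 12.44, 12.63 and 12.09 with enzastaurin and 12.47 and 12.35 with Go. All 5 treated arrays lay below all 3 controls; the fall was 1.72-fold with enzastaurin (-0.78, SE 0.16, limma adjusted p = 0.0046). GINS1, a GINS subunit, read 6.07, 6.21 and 6.47 in controls and 6.68, 6.79 and 6.58 with enzastaurin, a difference of 0.43 (adjusted p = 0.014). These signals are dim: GINS1 was above background on 1 control, 3 enzastaurin and 2 Go arrays, so it entered the test through the groups where it is high, and its difference is taken against controls mostly at background. GINS2 (-0.23, adjusted p = 0.0824) and, by its brighter probe, GINS3 (-0.04, adjusted p = 0.802) did not pass the test. The dimmer GINS3 probe, A_24_P159323, was above background on all 8 arrays. It was called lower with enzastaurin (-0.28, limma adjusted p = 0.0448 over all probes) and with Go (-0.41, adjusted p = 0.0304).

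The loading factors CDT1 and CDC6 bring the MCM ring to ORC. CDT1 read 13.51, 13.40 and 13.20 in controls, 12.57, 12.72 and 12.41 with enzastaurin and 13.03 and 12.50 with Go. Every treated array was below every control, and the Go arrays lay 0.53 apart, Go 1 the nearer to control. CDT1 fell 1.75-fold with enzastaurin (-0.81, SE 0.16, limma adjusted p = 0.004), while its dimmer probe, A_24_P176374, gave -0.15 and was not called (adjusted p = 0.242). CDC6 differed by -0.32 with enzastaurin and narrowly missed the threshold (adjusted p = 0.0507); its controls spanned 11.25 to 11.67 and overlapped with enzastaurin 2 at 11.27.

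**Figure D2:**
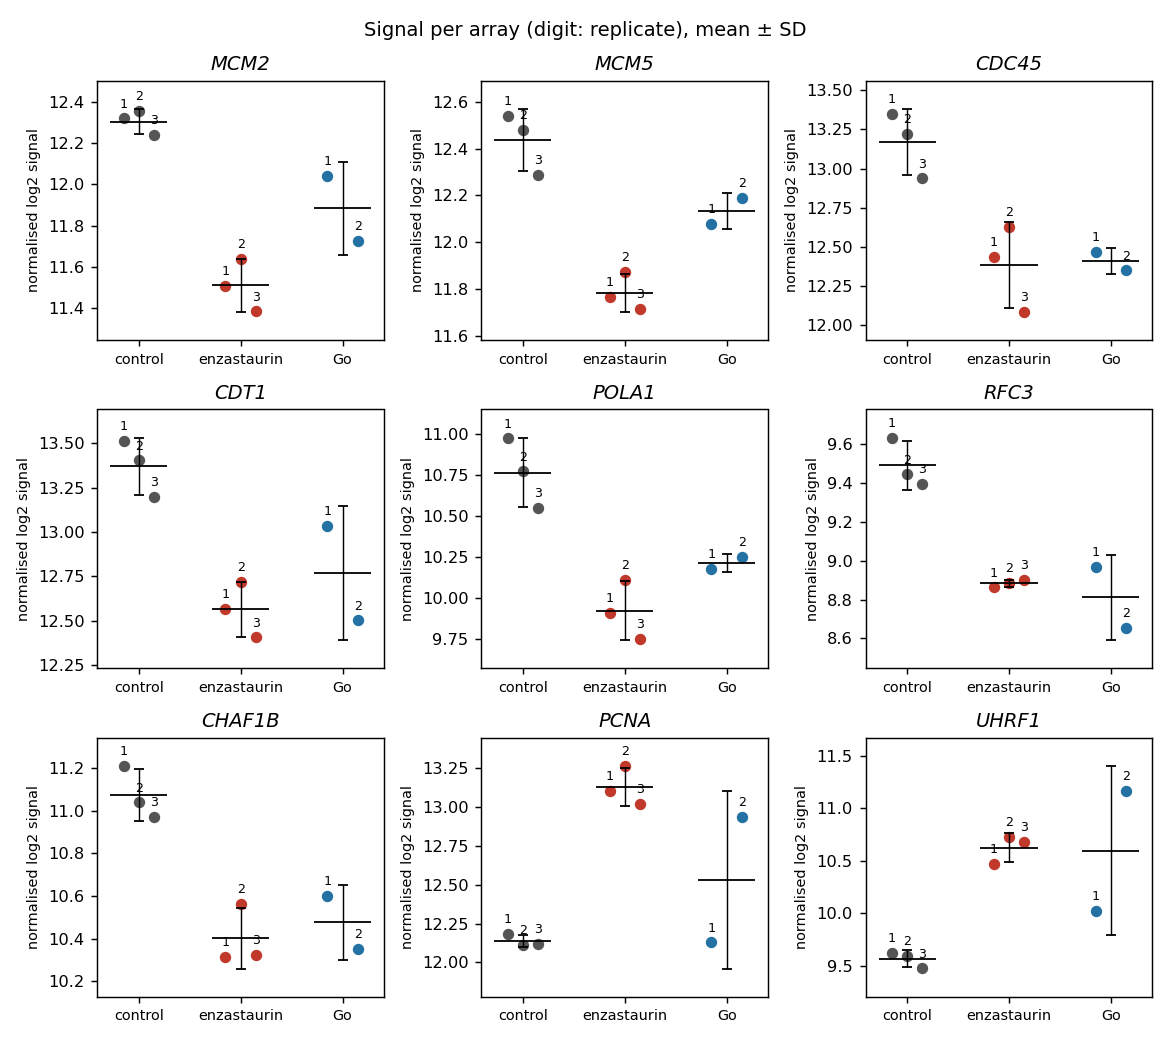
Normalised log2 signal of 9 genes on each array (points, digit gives the replicate), with the mean (horizontal line) and SD (bar) of 3 control, 3 enzastaurin and 2 Go arrays; each panel has its own vertical range, which does not start at 0. MCM2, MCM5, CDC45, CDT1, POLA1, RFC3 and CHAF1B were below control on all 5 treated arrays, whereas PCNA was above control on the enzastaurin arrays and Go 2 with Go 1 at 12.13, and UHRF1 was above control on all 5.

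PCNA, the sliding clamp, rose with enzastaurin while 3 of the 4 replication factor C subunits that load it were called lower, RFC4 among them by a call that held in only 8 of 20 other settings. PCNA read 12.18, 12.11 and 12.12 in controls and 13.11, 13.26 and 13.02 with enzastaurin. The Go arrays split: Go 1 read 12.13, within the controls, and Go 2 read 12.94, just under the lowest enzastaurin array. PCNA rose 1.99-fold with enzastaurin (0.99, SE 0.18, limma adjusted p = 0.00341) and was not called with Go (0.40, interval -0.08 to 0.87, adjusted p = 0.169). Each high PCNA array belongs to the second spot-position set and each low one to the first; with the set as a block the enzastaurin difference was 0.18 (adjusted p = 0.489).

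RFC3, RFC4 and RFC5, subunits of the clamp loader, also fell with Go. RFC3 read 9.63, 9.44 and 9.39 in controls, 8.86, 8.89 and 8.90 with enzastaurin and 8.97 and 8.66 with Go. The treated arrays were all below the controls, by 1.52-fold for enzastaurin (limma adjusted p = 0.0025) and 1.6-fold for Go (adjusted p = 0.011), although the dim probe A_32_P197016 of RFC3 gave -0.11 and -0.075 and was not called. RFC5 read 11.15, 11.15 and 11.09 in controls, 10.56, 10.64 and 10.68 with enzastaurin and 10.84 and 10.78 with Go, a fall of 1.41-fold with enzastaurin (adjusted p = 0.00137). RFC4 read 11.94, 11.83 and 11.89 in controls, 11.55, 11.70 and 11.64 with enzastaurin and 11.24 and 11.48 with Go. Its fall was 0.53 on the log2 scale with Go (adjusted p = 0.0141) and 0.25 with enzastaurin (adjusted p = 0.0442), and the latter value turned to 0.024 with arrays scaled to the median. The enzastaurin call of RFC4 was also lost under 11 more settings, among them the blocks, scaling to the 75th percentile and leaving out any control or enzastaurin array. The difference between the inhibitors was not called for RFC4 (-0.27, adjusted p = 0.164). RFC2 did not pass with enzastaurin (0.23, adjusted p = 0.193) or Go (-0.02, adjusted p = 0.944).

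POLA1, the catalytic subunit of the polymerase that starts each new strand, had the most negative difference of the 31 genes with enzastaurin. It read 10.97, 10.77 and 10.55 in controls, 9.91, 10.11 and 9.75 with enzastaurin and 10.17 and 10.25 with Go. No treated array reached a control; the fall was 1.79-fold with enzastaurin (-0.84, SE 0.13, limma adjusted p = 0.00177) and 1.47-fold with Go (adjusted p = 0.0302). POLE2, an accessory subunit of polymerase epsilon, differed by 0.01 with enzastaurin (interval -0.24 to 0.27) and by -0.19 with Go (adjusted p = 0.25). FEN1, the flap endonuclease that trims Okazaki fragments, gave contrary answers by its 2 probes, described with the other probe pairs.

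Of 4 nucleotide synthesis genes, 1 passed the test. RRM1, the large subunit of ribonucleotide reductase, read 13.01, 12.97 and 12.92 in controls, 12.71, 12.69 and 12.81 with enzastaurin and 12.75 and 12.56 with Go. It was 1.17-fold lower with enzastaurin (limma adjusted p = 0.0441) and 1.24-fold lower with Go (adjusted p = 0.0398), but these calls held in only 10 and 8 of 20 other settings, and the enzastaurin value turned to 0.054 with arrays scaled to the median. TYMS, thymidylate synthase, differed by 0.09 with enzastaurin (interval -0.16 to 0.33) and 0.02 with Go (-0.26 to 0.30). TK1, the S phase thymidine kinase, differed by -0.15 (interval -0.37 to 0.06) and -0.23 (-0.48 to 0.01). RRM2, the small reductase subunit, was not called by its brighter probe (0.20 with enzastaurin, adjusted p = 0.295).

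E2F factors switch on many of the genes above. Of E2F1, E2F2 and E2F8, the E2F factors among the members, E2F2 alone was called. E2F4, which is not a member, was called higher with both inhibitors and is described further below. E2F2, an activating member, read 9.88, 9.67 and 9.46 in controls, 9.03, 9.31 and 8.93 with enzastaurin and 9.30 and 9.46 with Go. It fell 1.49-fold with enzastaurin (-0.58, SE 0.14, limma adjusted p = 0.00923), and its dimmer probe gave the same direction (-0.85, adjusted p = 0.0032 over all probes). With Go it differed by -0.29 by its brighter probe (adjusted p = 0.178), whereas the dimmer one was called lower (-0.62, limma adjusted p = 0.0342 over all probes). E2F1, another activator, differed by 0.00 with an interval of -0.32 to 0.31, and E2F8, a repressor of S phase genes, by 0.08 (interval -0.17 to 0.34).

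The chromatin genes split in 3 ways. CHAF1B, the middle subunit of the histone chaperone CAF-1, read 11.21, 11.04 and 10.97 in controls, 10.31, 10.56 and 10.32 with enzastaurin and 10.60 and 10.35 with Go. All treated arrays were below the controls, by 1.59-fold for enzastaurin (limma adjusted p = 0.00224) and 1.51-fold for Go (adjusted p = 0.0173). CHAF1A, the large subunit of the same chaperone, differed by -0.05 with enzastaurin (interval -0.29 to 0.19) and -0.12 with Go (-0.39 to 0.15). The intervals of CHAF1B were -0.93 to -0.41 and -0.89 to -0.31; whether the subunits differ was not tested. UHRF1, which brings the maintenance methyltransferase to newly copied DNA, read 9.62, 9.59 and 9.47 in controls, 10.47, 10.73 and 10.68 with enzastaurin and 10.03 and 11.17 with Go. By this probe UHRF1 rose 2.09-fold with enzastaurin (1.06, SE 0.25, adjusted p = 0.0089) and 2.05-fold with Go (1.03, SE 0.28, adjusted p = 0.0316). Go 2 was the highest array and Go 1 the lowest treated one, and with the spot-position set as a block the enzastaurin difference was -0.08 (adjusted p = 0.808).

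With Go, 12 of the 31 genes were lower (38.7%, against 16.2% of all genes tested) and 1, UHRF1, was higher (3.23%, against 12.8%), and 18 did not pass (limma; 29% of all genes were called). The members' median was -0.23, beside -0.08 for all genes. The Go and control arrays stood apart for 18 genes below and 2 above control, against 34.4% and 22.3% of all genes. UHRF1 alone reached 2-fold, as 4.08% of all genes did upward and 1.98% downward among those called. The genes that fell were MCM2, MCM3, CDC45, CDC6, CDT1, RFC3, RFC4, RFC5, POLA1, RRM1, CHAF1B and, by the brighter of its 2 probes only, FEN1 (its other probe was called higher). The calls held in 7 (CDC6) to 17 (RFC4) of 20 other settings. Of these, 11 were also called lower with enzastaurin, all except CDC6, and no gene was called in opposite directions; the comparisons share their control arrays. CDC6 read 11.67, 11.55 and 11.25 in controls and 11.03 and 11.07 with Go, a fall of 0.44 on the log2 scale (SE 0.13, adjusted p = 0.04).

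The Go result rests on few arrays. Without control 2 the count of members lower fell from 12 to 1, and without control 1 to 3. The count of all genes lower fell likewise, from 3043 to 190 and to 870. Without Go 2 the members' median was -0.22, beside -0.06 for all genes. When the variance was estimated from the control and Go arrays alone, no member was called (limma) and 1 of all 18833 genes was. At an unadjusted p under 0.05, 13 members and 32.9% of all genes passed in that fit. With the spot-position set as a block only RFC4 was called (-0.65, adjusted p = 0.0189), and 981 of all genes.

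Within each spot-position set, Go can be set beside another group as single arrays. Go 1 lay below all 3 controls in 20 of the 31 genes (64.5%, against 42.8% of all genes) and above all 3 in 2, GINS1 and UHRF1 (6.45%, against 28.8%). Its distance from the control mean was -0.70 for CDC45, -0.65 for RFC4, -0.59 for POLA1, -0.52 for RFC3 and -0.47 for CHAF1B. FEN1 lay at -0.52 by its brighter probe, while by its other probe Go 1 read 10.82, above all 3 controls. PCNA lay at -0.01 and UHRF1 at 0.46. Go 2 lay above all 3 enzastaurin arrays in 8 genes (25.8%, against 40.8%) and below all 3 in 8 (25.8%, against 34.7%). The median distance of the members was -0.22 for Go 1 from controls (all genes -0.06) and -0.04 for Go 2 from enzastaurin (all genes 0.02). These are values of 1 array against 3 and have no test of their own.

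Between Go and enzastaurin no member was called (limma), where 4.02% of all genes were (2.38% higher, 1.64% lower). At an unadjusted p under 0.05, 5 of 31 members and 22.4% of all genes passed. The arrays did not overlap in 5 genes higher and 4 lower with Go, against 26.6% and 19.8% of all genes. The widest differences were PCNA at -0.60 (interval -1.08 to -0.12, adjusted p = 0.142), MCM2 at 0.37 (0.09 to 0.65, adjusted p = 0.124) and MCM5 at 0.35 (0.11 to 0.59, adjusted p = 0.102). Since the dose of Go is not stated, these values stand beside each other without a comparison at matched dose. Without Go 2, which lies nearest to enzastaurin, MCM2 was called higher and PCNA and UHRF1 lower in Go.

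**Figure D3:**
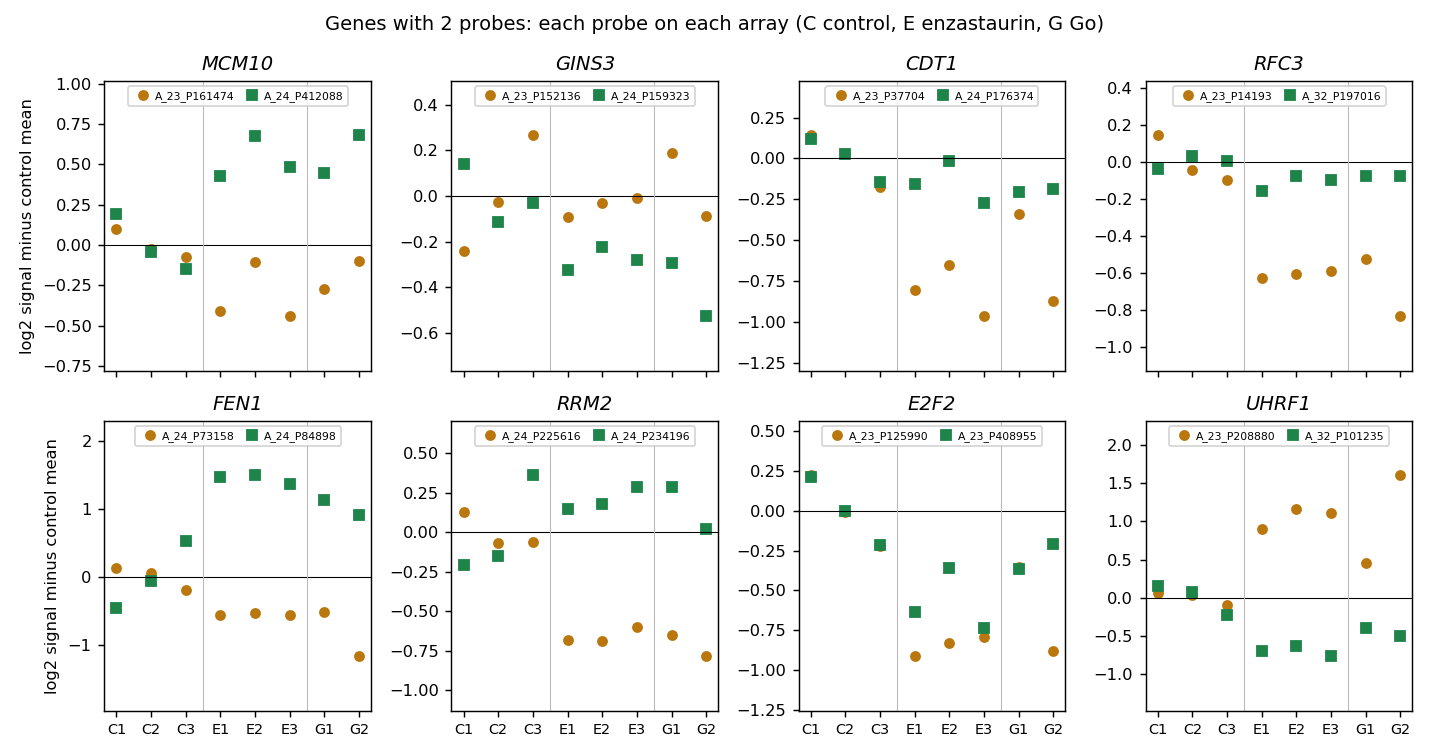
Normalised log2 signal minus the control mean for both probes of the 8 genes with 2 probes, on each of 8 arrays (control, enzastaurin and Go in that order); each panel has its own vertical range. The probes of FEN1, UHRF1, MCM10 and RRM2 lie on opposite sides of the control mean on all 5 treated arrays, whereas those of E2F2 lie on the same side. The brighter RRM2 probe was close to it on Go 2, at 10.79 beside a control mean of 10.77. The dimmer MCM10 probe was above background on 1 of the 5 treated arrays.

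Genes with 2 probes show how far a value depends on the probe. The ratio between the probes differed from control in 6 of 8 genes with enzastaurin (MCM10, CDT1, RFC3, FEN1, RRM2 and UHRF1), where 47.9% of 4577 genes with several probes did so, and in 5 of 8 with Go (30.3%). MCM10 counts in both, although its dimmer probe was mostly not above background on treated arrays. For FEN1 the brighter probe, A_24_P73158, read 11.38, 11.32 and 11.07 in controls, 10.70, 10.73 and 10.71 with enzastaurin and 10.74 and 10.09 with Go. The probe A_24_P84898 of FEN1 read 9.22, 9.62 and 10.20 in controls, 11.14, 11.17 and 11.04 with enzastaurin and 10.82 and 10.58 with Go. The first fell by 0.54 with enzastaurin and by 0.84 with Go, the other rose by 1.44 and 1.02, and all 4 values were called (limma, over all probes), so that FEN1 has no settled direction.

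UHRF1 also had contrary probes. A_32_P101235 of UHRF1 read 8.43, 8.34 and 8.04 in controls, 7.57, 7.64 and 7.50 with enzastaurin and 7.87 and 7.77 with Go, lower by 0.70 and 0.45, whereas A_23_P208880 was the probe that rose. For RRM2 the probe A_24_P225616 read 10.23, 10.03 and 10.04 in controls, 9.42, 9.41 and 9.50 with enzastaurin and 9.45 and 9.31 with Go. All treated arrays lay below control by that RRM2 probe (-0.66 and -0.72, limma adjusted p = 0.000979 and 0.00612 over all probes), while the brighter one was not called. Where on the transcript each probe lies was not analysed here.

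Other genes of the same machinery, 70 in 9 lists, were placed beside the members. With enzastaurin 31 were lower (44.3%), 11 higher (15.7%) and 28 not called, with a median of -0.21; with Go 24 were lower (34.3%), 5 higher (7.14%) and 41 not called, with a median of -0.22. The share of all genes called lower was 32.6% and 16.2%. ATRIP, counted among the 70 and called with neither inhibitor, was read from a probe named TREX1 that was not matched to ATRIP. Of the origin recognition and licensing genes 6 of 8 fell with enzastaurin, and ORC4 alone was higher. ORC6, a subunit of the origin recognition complex, read 13.55, 13.30 and 13.08 in controls, 11.87, 11.90 and 11.88 with enzastaurin and 12.75 and 12.04 with Go. The treated arrays were all below control, by 2.69-fold with enzastaurin (limma adjusted p = 0.000983).

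All 3 subunits of the single-strand binding protein RPA fell with both inhibitors: with enzastaurin RPA1 by 0.84, RPA2 by 0.76 and RPA3 by 0.91 on the log2 scale, and with Go by 0.57, 0.41 and 0.41. CCNE1 and CCNA2, the cyclins that drive entry into and passage through S phase, fell by 0.90 and 0.81 with enzastaurin and by 0.56 and 0.50 with Go. Other genes of these lists rose with both inhibitors. TOP2A, listed with RPA, rose by 0.45 with enzastaurin and 0.58 with Go, and DBF4, listed with the cyclins, by 0.59 and 0.59. Of the 10 origin firing genes, which include the cyclins and DBF4, 3 were higher and 3 lower with enzastaurin. With Go 2 of them were higher and 4 lower. Of the 8 genes listed with RPA, 1 was higher and 6 lower with enzastaurin, and 1 higher and 4 lower with Go. Of 10 polymerase and primase subunits 6 fell with each inhibitor and none rose. POLE, counted as lower with both, was dim and above background on only 5 of the 8 arrays. POLD4, the smallest subunit of polymerase delta, fell with enzastaurin (-0.93) and was the only gene of the 70 called between the inhibitors, 0.75 higher with Go (adjusted p = 0.0101). Its arrays read 11.46, 11.44 and 11.33 with enzastaurin and 12.18 and 12.15 with Go, near the controls at 12.44, 12.39 and 12.18.

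The 10 regulators of E2F activity included the largest rises. Of these 10 genes, 2 were higher and 2 lower with enzastaurin, and 2 higher and 3 lower with Go. E2F4, a repressor E2F of resting cells, read 8.26, 8.55 and 8.98 in controls, 10.36, 10.39 and 10.28 with enzastaurin and 9.67 and 10.37 with Go. It rose by 1.75 (limma adjusted p = 0.000846) and 1.43 (adjusted p = 0.0107). RB1, the retinoblastoma protein that binds E2F factors, rose by 0.96 and 0.64, while RBL1, its relative, fell by 0.37 and 0.45. E2F5 was called lower with enzastaurin only (-0.52) and TFDP1 with Go only (-0.67). Of 7 nucleotide supply genes 3 rose with enzastaurin (SHMT1 by 0.82, DUT by 0.47 and RRM2B by 0.44) and CAD fell (-0.34), where 20.9% of all genes were higher and 32.6% lower. None of the 7 was called with Go (limma). At an unadjusted p under 0.05, 3 of them passed with Go, as did 45.6% of all genes. Of 10 mitosis genes, 3 were higher and 1 lower with enzastaurin and none was called with Go (limma; 3 at an unadjusted p under 0.05; 12.8% of all genes were higher and 16.2% lower with Go). CDK1 among them differed between controls, at 9.68, 10.91 and 11.26.

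Markers of the cell type were those of an epithelial line. All 6 keratinocyte markers with a probe were above background on all 8 arrays. Of the fibroblast markers 0 of 6 were, with PDGFRB on no array; of the leukocyte markers 4 of 6 were, with PTPRC on none; of the endothelial markers 1 of 4, VWF, was, with PECAM1 and KDR on none. The summed deposited intensity of the leukocyte markers was 791 to 1004 in controls, 1862 to 2141 with enzastaurin and 1257 to 1333.5 with Go, that of the fibroblast markers 99.5 to 135, 160.5 to 217 and 136 to 169.5, and that of the keratinocyte markers 46007 to 57500, 67940 to 91564 and 55626 to 60705. That of the endothelial markers was 111.5 to 127.5, 104.5 to 118 and 69.5 to 168. Single leukocyte markers went different ways with enzastaurin: HLA-DRA was higher by 1.12, CD3E was lower (-0.68), and CD14 (-0.0048) and CD68 (0.061) were not called. These sums are not normalised between arrays, and their part in the results was not tested.

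**Figure D4:**
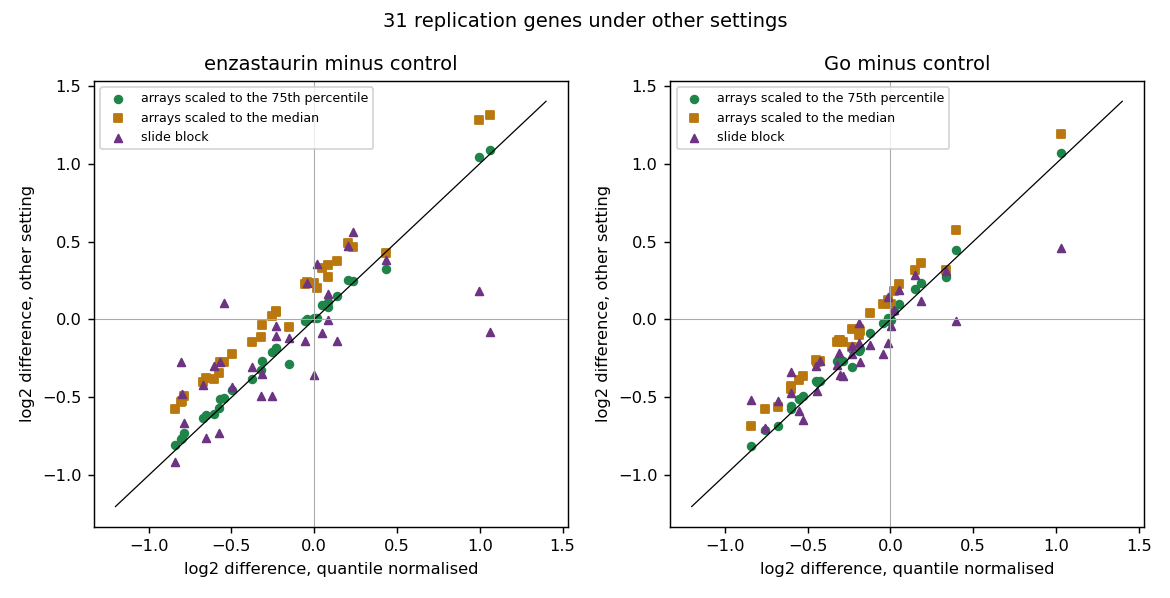
Log2 difference of each of the 31 genes with quantile normalisation (horizontal) against the same difference under 3 other settings (vertical), for enzastaurin and for Go against control; the line marks equal values and slide block means the spot-position set as a block. Scaling to the median lies above the line for nearly all genes, with a member median of 0.02 in place of -0.23 for enzastaurin, and with the block PCNA and UHRF1 fall to 0.18 and -0.08.

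Across 20 other settings the calls of MCM2, MCM3, MCM5, CDC45, PCNA, RFC5, POLA1 and CHAF1B with enzastaurin held in 19, and the exception for each was the spot-position set as a block. These genes have 1 probe each, so 2 of the settings, another probe and averaged probes, could not change their values. Their directions held in all 20, the block included.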

How the data were processed

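Single-colour arrays of 8 RNA samples from CAL-27 cells were used, grouped by the labels: control (n = 3), enzastaurin (n = 3) and Go (n = 2). The authors deposited scanner tables that, per the file headers, hold foreground and background intensity, a signal-to-noise score, the percent of saturated pixels and other columns with spot positions for each of 45220 spots. A value table deposited by the authors holds background-subtracted intensity, by comparison with the scanner tables, with a floor of 0.5, no normalisation and array medians of 38 to 56. What else was done before deposit is not given in the sources used here.

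The annotation of the scanner tables is rotated end to end relative to the spots. As deposited, replicate spots differed with an SD of 2.31 to 2.61 (log2) and the rank correlation with the value table was 0.0072 to 0.013 across probes; rotated, these were 0.241 to 0.34 and 0.9904 to 0.9937, and the rotated annotation was used. Signals were log2(value + 50), quantile normalised. A probe was tested where its score exceeded 3 on 2 or more arrays, a score that no more than 0.654% of 153 negative controls passed on an array. Each gene name was read from its brightest probe on average, which left 18833 names from 24771 probes. One fit over the 3 groups was made with limma 3.58.1 in R 4.3.3 (5 residual and 3.03 prior degrees of freedom); p-values were adjusted by Benjamini-Hochberg, the threshold was 0.05 and intervals are 95%; the number of arrays limits the precision. Single probes were fitted the same way over the 24771 probes tested. Ratios of the 2 brightest probes were fitted over the 4577 genes with several probes.

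All 31 members are named whatever their values; other replication genes are named as at most 3 called genes per list and comparison with the largest differences and no overlap, and ORC4, CAD and RBL1 were added after their values were seen. The members and lists were chosen with earlier results of these data known. The slide was inferred from mean spot positions, 10930.1 to 10951 µm and 10897.1 to 10904.5 µm. Alternatives were the scanner intensities, other offsets, scalings, filters, probes, samples and blocks. The fit was tested on simulated data, 5 runs with 200 of 18833 genes changed: at a log2 change of 1 it recovered 76%, 66.2% and 66.6% for enzastaurin against control, Go against control and Go against enzastaurin, at 0.5 33.8%, 20.4% and 21.2%, and 4.52%, 4.63% and 4.77% of the calls were false. The simulated noise was independent between arrays, with no difference between the spot-position sets, and the normalisation was not repeated. In the data 53.6% of all genes were called with enzastaurin, far more than were changed here. These rates therefore check the fit and do not carry over to the comparisons made.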

Additional observations from a re-analysis of the deposited data

How the results depend on the processing

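The counts of members called with enzastaurin (15 lower, 3 higher; median -0.23) moved to 9 lower and 6 higher (median 0.024) with arrays scaled to the median, and to 0 and 0 (limma; 6 members at an unadjusted p under 0.05; median -0.14; 528 of all genes) with the slide as a block. The counts with Go (12 lower, 1 higher; median -0.23; 5453 of all genes) moved to 3 lower (median -0.10) with median scaling, to 0 higher both without the filter on dimness and when probes of a gene were averaged, to 0 lower and 0 higher (limma; 13 at an unadjusted p under 0.05; 1 of all genes) with only the groups compared, to 1 lower and 0 higher (981 of all genes) with the slide block, and to 2 higher with the other probe of genes with 2 probes, a setting added after seeing the data. With median scaling 3732 of all genes were lower and 5276 higher with enzastaurin, and 1468 and 2636 with Go. At an unadjusted p under 0.05 (limma), 26.3% of all genes passed for enzastaurin with the slide block. For Go with only the groups compared 32.9% of all genes did. Replicate numbers shared by the groups were not taken as pairs. The correlations of deviations from the group means ran from -0.165 to 0.168, not all over 0.1. With groups of 2 or 3 arrays such correlations cannot decide whether the arrays were paired. With the replicate block 13 members were lower and 3 higher with enzastaurin and 11 and 1 with Go, and 191 of all genes, in place of 758, were called between the inhibitors.

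Leaving out 1 array at a time gave 11 to 15 members lower and 2 to 5 higher with enzastaurin (5 without control 3), with medians of -0.29 to -0.21. With Go it gave 1 to 13 lower (1 without control 2 or Go 2, 3 without control 1, 6 and 7 without enzastaurin 1 and 2) and 0 to 2 higher, with 777 to 7675 of all genes called and medians of -0.25 to -0.18. Between the inhibitors it gave 0 to 1 higher and 0 to 2 lower, all without Go 2, with 97 to 1943 of all genes and medians of -0.062 to 0.045. Where only 1 Go array is left, it is assumed to vary like the other groups.

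Directions turned for these genes. Scaled to the median, RFC4 was 0.024 and RRM1 0.054 with enzastaurin. When probes of a gene were averaged, MCM10 was 0.10 and FEN1 0.45 with enzastaurin and FEN1 0.089 with Go. With the slide block, FEN1 was 0.11 and UHRF1 -0.078 with enzastaurin. With the other probe, MCM10 was 0.53, FEN1 1.44, RRM2 -0.66 and UHRF1 -0.70 with enzastaurin, and MCM10 was 0.56, GINS3 -0.41, FEN1 1.02, RRM2 -0.72 and UHRF1 -0.45 with Go. The cause was not tested, apart from settings that use another probe or fewer arrays. No other setting run turned the direction of a called gene. Signal near background limits GINS1 and the dimmer probe of MCM10.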
